A study of Mus musculus with 401 samples.

Results

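The 9 genes described here are transcriptional regulators of the mouse oocyte: Figla, Nobox, Lhx8, Sohlh1, Sohlh2, Taf4b, Tbpl2, Nfya and Pou5f1. They were chosen by name, and all 9 were found by their Ensembl identifiers in both deposited count tables, among 41092 genes in the first and 42349 in the second. RNA of single oocytes at the germinal vesicle stage, and of the pooled cumulus cells around each of them, was sequenced by RamDA-seq, which copies total RNA along the full length of transcripts. All mice were B6D2F1 females, a cross of C57BL/6 and DBA/2, and all groups except 2moNoH were hyperovulated with eCG or HyperOva before fully grown follicles were dissected. Which group received which agent is not given in the sources used here. The first set compared mice fed ad libitum at 2 months (Young; 16 oocyte and 15 cumulus libraries), 9 months (Middle; 14 and 15) and 14 months (Old; 16 and 16) with mice of 9 months that had been on calorie restriction since young adulthood (CR; 27 and 25). The second set held mice fed ad libitum at 2 months (2mo; 24 and 24), 4 months (4mo; 39 and 40), 9 months (9mo; 16 and 16) and 14 months (14mo; 16 and 16), and mice of 2 months without hyperovulation (2moNoH; 32 and 32).

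Oocytes of one mouse share their source, and few mice stand behind a group. The mouse labels numbered 2 for Young, 4 for Middle, 2 for Old, 3 for CR, 5 for 2mo, 8 for 4mo, 4 for 9mo, 5 for 14mo and 8 for 2moNoH, and 1 of the labels of Old (Old1_2) joins mice. The 14 Middle oocytes came from 3, 6, 1 and 4 per label and the 27 CR oocytes from 3, 11 and 13. Libraries were the units of the tests, as in the methods of the study, and p-values therefore measure the spread between libraries. Total counts ranged from 559305 to 4536690 per oocyte library and from 510029 to 2501005 per cumulus library. CR oocytes were the deepest (median 3578882, against 2332126 in Middle). Levels of single genes are given as CPM (counts divided by the TMM-normalized library size, scaled to 1e6). Sums over marker genes are CPM of the plain total count, without the TMM factor. Oocyte markers (13 genes, among them Ddx4, Gdf9 and Zp3) summed to medians of 18348 to 24536 CPM in oocytes and to at most 423 CPM in any cumulus library. In Old oocytes the cumulus markers (11 genes, among them Amh, Foxl2 and Fshr) had a median of 385 CPM, next to 130 for Young, 187 for Middle and 171 for CR, and of 90.6 to 120 in groups of the second set. A Middle3 oocyte library with 10121 CPM of cumulus markers and 186 CPM of oocyte markers was left out together with the cumulus library of its complex.

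FIGLA, SOHLH1 and SOHLH2 are basic helix-loop-helix proteins that bind E-boxes as dimers, and NOBOX and LHX8 are homeodomain proteins. Mice that lack any one of these 5 lose oocytes around the formation and first growth of follicles, and FIGLA is known as the activator of the zona pellucida genes. TAF4B is a gonad-enriched subunit of the general factor TFIID, and TBPL2 is a relative of the TATA-binding protein that takes its place in growing oocytes. NFYA is the DNA-binding regulatory subunit of the CCAAT factor NF-Y, which also acts in somatic cells, and POU5F1 (OCT4) is a POU factor of the germ line and the early embryo.

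In GRCm38, 8 of the genes lie at chr6:86016171-86020996 (Figla, plus strand), chr6:43303674-43309554 (Nobox, minus strand), chr3:154306294-154330659 (Lhx8, minus), chr2:25842995-25847248 (Sohlh1, minus), chr3:55182028-55209957 (Sohlh2, plus), chr2:24071721-24096595 (Tbpl2, minus), chr17:48386885-48409906 (Nfya, minus) and chr17:35506018-35510772 (Pou5f1, plus). Promoter windows of 250 bases before the RefSeq start (GRCm38.p6) were found for 8 of the 9. Since the members are themselves known to bind E-boxes, CCAAT boxes and related motifs, the windows of 3 members whose levels differed between groups are shown, with matches to the E-box CANNTG and the CCAAT box, on either strand, in capitals. The Figla window is chr6:86016941-86017190, inside the longer GENCODE span of the gene, the Sohlh1 window is chr2:25847249-25847498, read on the minus strand, and the Pou5f1 window is chr17:35505782-35506031.
Figla: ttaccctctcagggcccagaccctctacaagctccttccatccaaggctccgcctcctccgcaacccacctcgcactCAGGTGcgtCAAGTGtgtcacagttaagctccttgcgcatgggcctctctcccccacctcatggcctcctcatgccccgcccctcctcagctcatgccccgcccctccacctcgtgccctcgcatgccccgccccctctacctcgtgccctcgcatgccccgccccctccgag
Sohlh1: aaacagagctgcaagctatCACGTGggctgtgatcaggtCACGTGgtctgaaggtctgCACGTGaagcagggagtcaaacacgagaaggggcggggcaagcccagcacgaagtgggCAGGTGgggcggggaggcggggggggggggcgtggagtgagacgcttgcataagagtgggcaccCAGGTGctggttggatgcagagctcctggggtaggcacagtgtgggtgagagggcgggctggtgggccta
Pou5f1: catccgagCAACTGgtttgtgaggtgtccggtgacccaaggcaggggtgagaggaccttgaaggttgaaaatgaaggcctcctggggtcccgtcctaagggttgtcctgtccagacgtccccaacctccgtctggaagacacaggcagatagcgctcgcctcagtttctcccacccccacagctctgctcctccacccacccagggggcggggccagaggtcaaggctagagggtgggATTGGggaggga
The Sohlh1 window held 5 E-boxes, with first bases at -231, -211, -192, -134 and -70 from the start. The Figla window held 2 E-boxes, at -173 and -164, and the Pou5f1 window held an E-box at -242 and a CCAAT box, read on the reverse strand as ATTGG, at -12. Tbpl2 had 4 E-boxes, Nobox 2, Sohlh2 1, and Lhx8 and Nfya had 0. None of these 8 windows held the NOBOX element TAATTG, the octamer ATGCAAAT or the TATA box TATAAA. Among all 32851 promoters of the table, 66.2% held an E-box, 33.8% a CCAAT box, 7.17% the NOBOX element, 1.60% the octamer and 12.4% the TATA box, so an E-box is common in windows of this length. A match describes the letters and not a bound site.

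In oocytes, Nobox had the highest level per length of transcript and Sohlh1 the lowest. Compared as RPKM (CPM per kilobase of the deposited gene length), the group means of Nobox were between 195 and 250. Lhx8 (73.0 to 87.2) and Nfya (67.1 to 88.9) followed, with ranges that overlapped, so their order is not fixed. Pou5f1 was at 20.8 to 31.4 RPKM and Figla at 14.4 to 22.6, ranges that overlapped between the sets but not within either. Taf4b (9.98 to 13.8) and Tbpl2 (7.73 to 11.4) could not be ordered either. Sohlh2 was at 2.37 to 3.43 and Sohlh1 at 0.141 to 1.31. With the exception of Sohlh1, every member had a count in each of the 73 oocytes of the first set and each of the 127 of the second. Sohlh1 had a count in 46 and 50 of them, with medians of 1 and 0 counts, and its values are near the limit of detection at this depth.

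**Figure D1:**
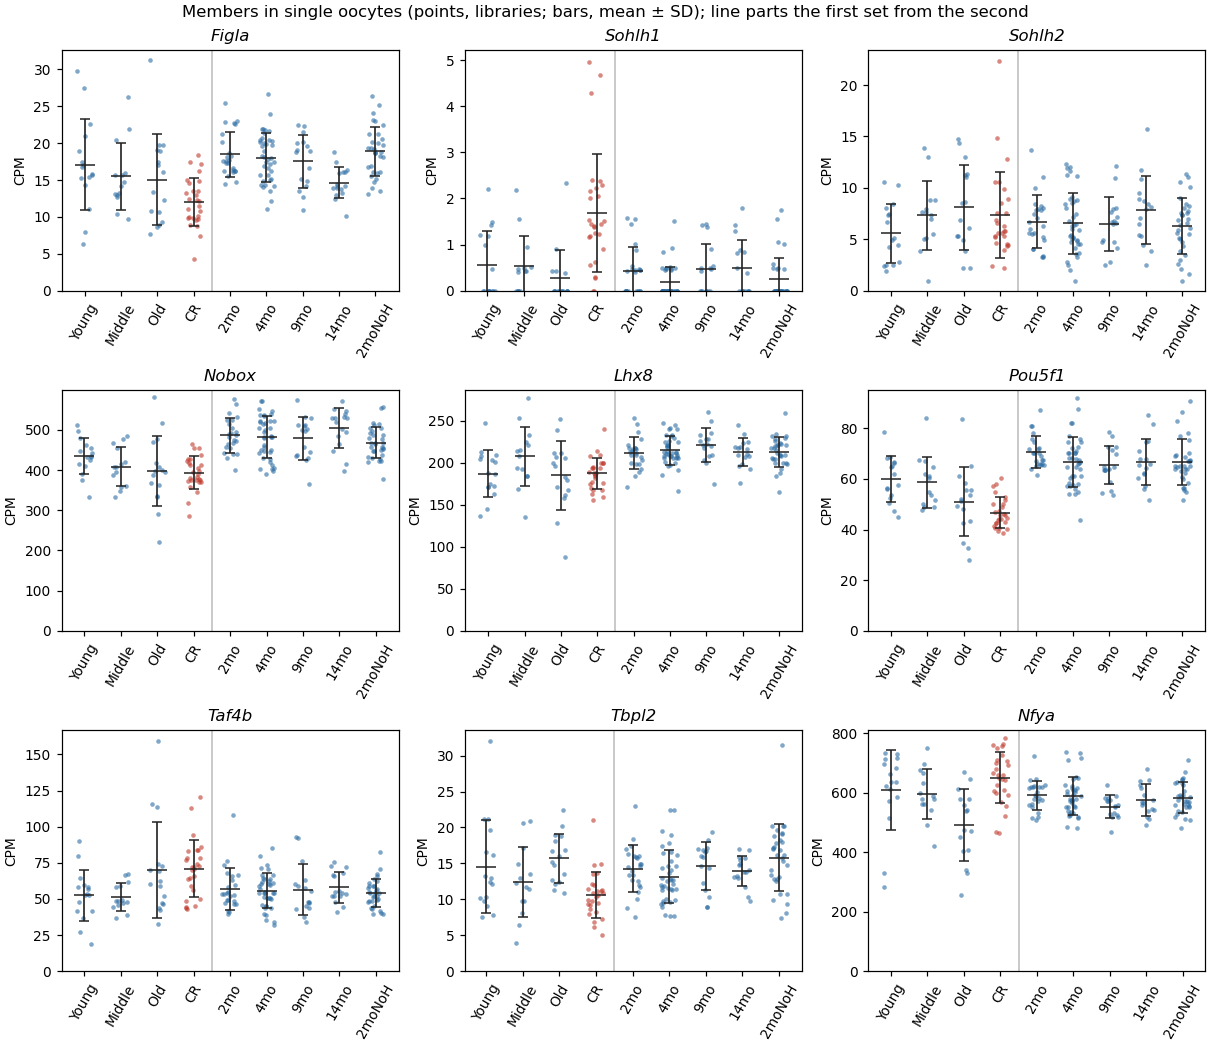
Levels of the 9 genes in oocyte libraries (y axes, CPM from 0, on a scale of its own per gene; x axes, groups of the first and the second set). Points are libraries and bars the mean ± SD. The reader should see that groups of the second set overlap for every gene, with Figla lowest in 14mo (14.6). In the first set the CR oocytes are shifted against Middle for Sohlh1, Taf4b, Pou5f1 and Figla, with overlap, while Taf4b in CR is level with Old.

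In the second set the levels of these genes in oocytes differed little with age and hyperovulation. The highest group mean was 1.05 to 1.29 times the lowest for 8 of the 9 genes, and 2.72 times for Sohlh1, at 0.182 ± 0.340 CPM (SD, n = 39) in 4mo and 0.495 ± 0.605 (n = 16) in 14mo. Nobox, the homeodomain factor, was at 486 ± 43.2 CPM in 2mo (n = 24), 481 ± 52.1 in 4mo (n = 39), 479 ± 53.0 in 9mo (n = 16), 504 ± 49.6 in 14mo (n = 16) and 468 ± 39.5 in 2moNoH (n = 32). Lhx8 was between 211 ± 18.7 CPM in 2mo and 221 ± 20.1 in 9mo, with a coefficient of variation of 7.88% to 9.08% within each group. Nobox and Lhx8 thus differed between ages by less than they differed between oocytes of 1 age.

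Of the 5 comparisons of the second set, only that of 14mo with 2mo had a member past the threshold of 5% false discovery rate (edgeR quasi-likelihood test, adjusted over all genes tested). Between 4mo and 2mo oocytes 0 of 9 members were called, beside 0.0126% of all genes, and 1 member (Sohlh1, at -0.94 on the log2 scale) had an unadjusted p under 0.05. Between 9mo and 2mo it was 0 of 9, beside 0.16%, with 2 (Nfya at -0.09 and Pou5f1 at -0.11) under that unadjusted limit. Between 14mo and 9mo it was 0 of 9, beside 0.0136%, with Figla at -0.26 under the limit, and between 2mo and 2moNoH 0 of 9, beside 0.0299%, with 0 under it. DESeq2 called 0 of 9 in each of these 4 comparisons as well. Without Sohlh1, no member differed by more than 0.10 (4mo vs 2mo), 0.11 (9mo vs 2mo), 0.26 (14mo vs 9mo) or 0.15 (2mo vs 2moNoH) on the log2 scale. For Nfya in 2mo against 2moNoH oocytes, the 95% interval of the log2 difference was -0.05 to 0.08, and for Nobox -0.02 to 0.11.

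Figla, the activator of zona pellucida genes, was lower in 14mo oocytes of the second set. Its 24 values in 2mo oocytes ran from 14.4 to 25.5 CPM with a median of 17.6, and its 16 values in 14mo oocytes from 10.2 to 18.9 with a median of 14.2. The groups overlapped, but 10 of 16 oocytes of 14mo were below the lowest of 2mo, and 1 was above the 2mo median. The means were 18.47 ± 3.0002 CPM (SD, n = 24) and 14.6 ± 2.10 (n = 16), a log2 fold change of -0.33 with a standard error of 0.08 and an adjusted p of 0.025 from edgeR. By mouse, the 5 labels of 2mo had means from 18.1 to 19.1 CPM and the 5 labels of 14mo from 13.3 to 16.5, so the means of mice did not overlap. It was the 1 member called of 9, beside 1.14% of all genes tested in this comparison. The call was lost at a nearly equal fold change when counts were summed per mouse (adjusted p = 0.141), when any of 14mo37, 14mo39, 14mo40, 14mo41, 2mo1 or 2mo34 was left out (log2 fold changes of -0.36 to -0.31 over all mice left out in turn), and with the cumulus marker level of each oocyte as a covariate, chosen after seeing the data (-0.37, adjusted p = 0.0845). Of the nonzero counts of Figla in oocytes, 46.5% were not whole in the second set and 47.9% in the first, so part of its reads was shared with other places in the genome. In 4mo (18.0 ± 3.36 CPM), 9mo (17.6 ± 3.60) and 2moNoH oocytes (18.9 ± 3.37) Figla stayed within the spread of 2mo. The same ages in the first set, Old against Young, gave no call of Figla. Its log2 fold change there was -0.17 (95% interval -0.56 to 0.22, adjusted p = 0.605 from edgeR).

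The other 8 members had log2 differences between -0.08 and 0.23 in 14mo against 2mo oocytes, and none was called. Pou5f1 was at 70.5 ± 6.21 CPM in 2mo and 66.8 ± 9.06 in 14mo. Taf4b was at 57.0 ± 14.7 and 58.0 ± 10.7, Tbpl2 at 14.2 ± 3.29 and 14.0 ± 2.10, and Nfya at 592 ± 49.0 and 575 ± 52.5. Sohlh2, near 13 to 18 counts per oocyte, was at 6.72 ± 2.54 and 7.82 ± 3.29 CPM.

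**Figure D2:**
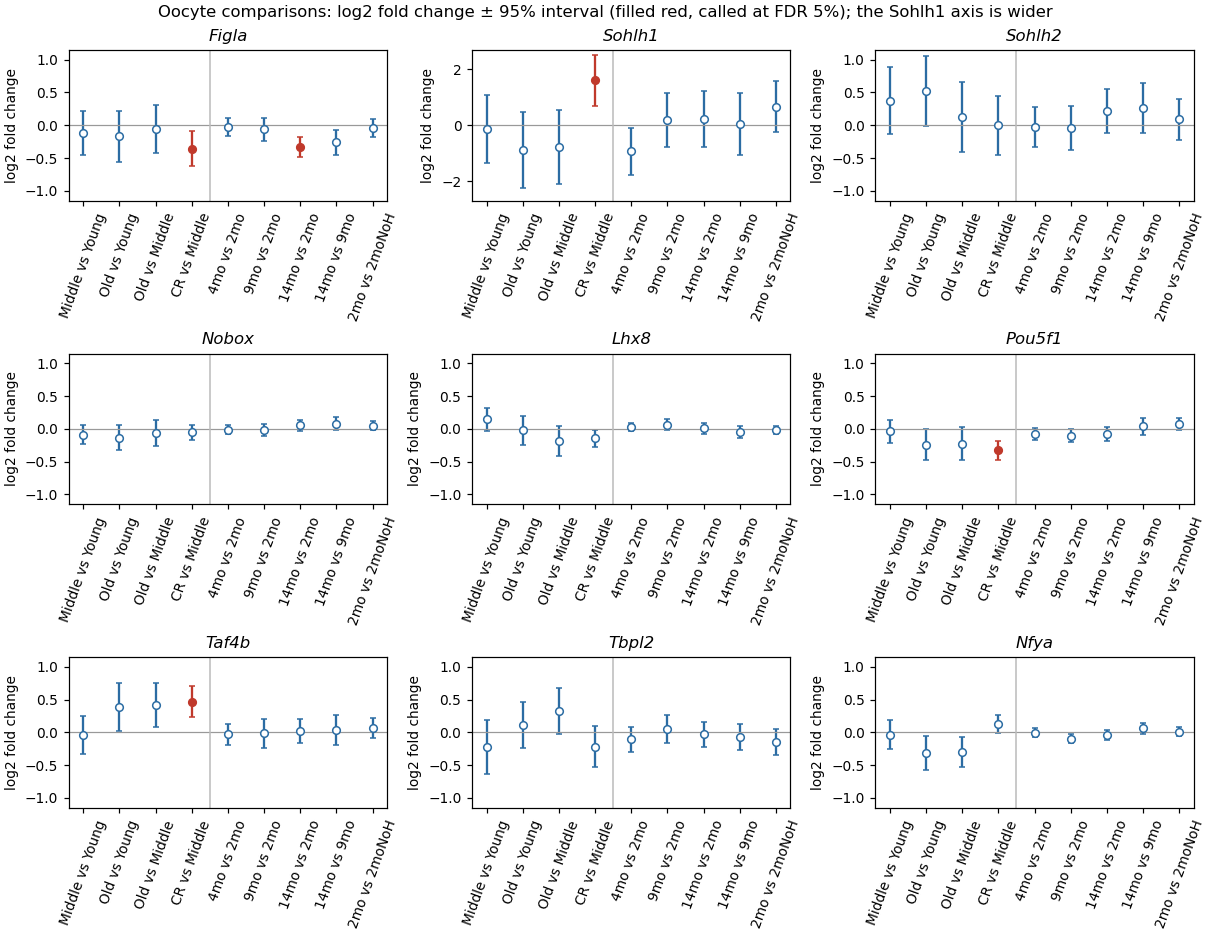
Log2 fold change of each gene in the oocyte comparisons (y axes, log2 scale; x axes, comparisons), with points for the estimate, bars for the 95% interval and filled red points for genes called at a false discovery rate of 5%. The reader should see 4 filled points in CR against Middle and 1, Figla, in 14mo against 2mo, and that the intervals of Sohlh1 are the widest, which is why its axis is wider.

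In the first set, ageing under ad libitum feeding gave 0 called members in oocytes by edgeR. Of 9 members, 0 were called between Middle and Young (0.0% of all genes, 0 members and 1783 genes at an unadjusted p under 0.05, 0 members and 25 genes called by DESeq2), 0 between Old and Young (7.39% of all genes, 3 members and 6272 of 23100 genes at that limit, 1 member and 2808 genes called by DESeq2) and 0 between Old and Middle (0.0% of all genes, 2 members and 4462 genes at that limit, 0 members and 677 genes called by DESeq2). The 3 members at that limit in Old against Young were Nfya, Taf4b and Pou5f1, a share near that of all genes. Among the 3 ages the coefficient of variation was highest in Old for 7 of the 9 members, but not for Tbpl2 (21.8%, next to 44.6% in Young) or Sohlh2 (51.0% and 51.1%). The second set did not repeat this, since 14mo had the highest value among its ages for no member. Figla there varied by 14.4% in 14mo and 20.5% in 9mo, and Taf4b by 18.4% and 31.2%. Taf4b averaged 70.03 ± 33.2 CPM in Old (n = 16), next to 52.4 ± 17.7 in Young (n = 16) and 51.4 ± 9.56 in Middle (n = 14), and its coefficient of variation was 47.4%, 33.8% and 18.6%. Against Young the log2 fold change of Taf4b was 0.39 with a standard error of 0.19 (adjusted p = 0.172 from edgeR). Taf4b is abundant in cumulus cells, as given later, and the cumulus markers of Old oocytes were the highest of the 4 groups. With their level as a covariate, added after seeing the data, the log2 fold change of Taf4b was 0.28 (adjusted p = 0.630 from edgeR). Marker level and age went together in these oocytes, so this fit cannot tell them apart. The part of cumulus RNA in the difference was not tested. The median log2 fold change of all genes in Old against Young was 0.11, and that of the 9 members -0.13.

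Nfya levels differed between the labels of Old mice. Its 16 values ran from 282 to 734 CPM in Young (median 637), its 14 from 419 to 749 in Middle (median 584) and its 16 from 256 to 671 in Old (median 507). The groups overlapped over most of their range. The 11 oocytes of Old1_2 averaged 442 CPM and the 5 of Old3 600, next to 602 to 628 for the labels of Young and 579 to 601 for those of Middle. Over all Old oocytes the log2 fold change against Young was -0.31 with a standard error of 0.13 (adjusted p = 0.121 from edgeR), and DESeq2 and the fit of all groups together called it (adjusted p of 0.0485 and 0.0276). Without Old3 it was -0.47 (adjusted p = 0.0271) and Pou5f1 was called too, whereas without Old1_2 it was -0.02. With the cumulus marker level as a covariate, added after seeing the data, it was -0.06 (adjusted p = 0.889 from edgeR), in a fit that cannot tell marker level and age apart. Pou5f1 showed the same split by label, with 46.7 CPM in Old1_2 and 60.2 in Old3, next to 59.96 ± 9.03 in Young.

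Calorie restriction was the condition with the most called members. Against Middle oocytes of the same age, 4 of 9 were called, Sohlh1 and Taf4b higher and Pou5f1 and Figla lower, beside 30.0% of all genes tested, 15.8% higher and 14.2% lower. Calls were thus frequent among all genes in this comparison, and 4 of 9 has to be read against that share. The median log2 fold change of the 9 members was -0.05, and that of all genes 0.00.

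Sohlh1, which acts early in oogenesis, was detected in more CR oocytes. Its 14 values in Middle ran from 0 to 2.19 CPM (median 0.429) and its 27 values in CR from 0 to 4.96 (median 1.44). The groups overlapped, with 23 of 27 CR oocytes above the Middle median and 7 above its highest value. It had a count in 25 of 27 CR oocytes, 9 of 14 Middle, 7 of 16 Young and 5 of 16 Old. The means were 0.530 ± 0.647 CPM (SD, n = 14) and 1.69 ± 1.28 (n = 27), a log2 fold change of 1.61 with a standard error of 0.46 (adjusted p = 0.0058 from edgeR). The medians were 1 count in Middle and 5 in CR libraries, which were also deeper. After CR counts were thinned at random to the median depth of Middle, which kept 65.2% of them, the log2 fold change was 1.59 and was called. By mouse, the means were 1.39, 0.306, 0.951 and 0.116 CPM in Middle1 to Middle4 and 1.95, 1.75 and 1.59 in CR1 to CR3. The log2 fold change of Sohlh1 was 2.43 without Middle1, and the call was lost without Middle2 (1.24, adjusted p = 0.109), without Middle4 (1.24, adjusted p = 0.058) and in sums per mouse (1.62, adjusted p = 0.0627).

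Taf4b, the gonadal TFIID subunit, rose in CR oocytes by a smaller factor and over many more counts. Values ran from 36.7 to 67.1 CPM in Middle (median 48.5) and from 42.8 to 120 in CR (median 71.9). The groups overlapped in their lower part, with 16 of 27 CR oocytes above the highest Middle oocyte and 22 above the Middle median. The means of 51.4 ± 9.56 (n = 14) and 70.9 ± 19.6 CPM (n = 27) gave a log2 fold change of 0.47, a standard error of 0.12 and an adjusted p of 0.002 from edgeR. The means of mice were 53.2, 49.2, 61.8 and 50.7 CPM in Middle1 to Middle4 and 68.8, 82.2 and 61.7 in CR1 to CR3. CR3 thus did not exceed Middle3, which is a single oocyte, and lay above the other Middle labels. The call held under 15 of 16 alternatives and was lost only in sums per mouse (adjusted p = 0.0541). Cumulus markers in these oocytes were at medians of 187 CPM in Middle and 171 in CR. Taf4b was also called with their level as a covariate, a fit added after seeing the data. The part of cumulus RNA in this difference was not tested.

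Pou5f1 was lower in CR oocytes with little spread. Values ran from 47.5 to 83.9 CPM in Middle (median 57.6) and from 38.5 to 60.3 in CR (median 45.8). Of 27 CR oocytes, 18 were below the lowest Middle oocyte and 2 above the Middle median. The means were 58.7 ± 10.1 (n = 14) and 46.7 ± 5.94 CPM (n = 27), a log2 fold change of -0.33 with a standard error of 0.07 (adjusted p = 0.00025 from edgeR). Middle1 to Middle4 averaged 55.8, 60.5, 47.5 and 61.0 CPM and CR1 to CR3 43.0, 44.4 and 49.5, so that Middle3, with 1 oocyte, lay below CR3. The call was kept without each mouse in turn and lost in sums per mouse (adjusted p = 0.286) and when all deposited libraries entered, the Middle3 library with cumulus RNA included (-0.18, adjusted p = 0.450). Of its nonzero oocyte counts, 75.3% were not whole. The gene is overlapped on the other strand by Gm19553, which had a median of 35.5 counts per oocyte, and without strand in the counts the reads of both cannot be told apart.

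Figla in CR oocytes had values from 4.31 to 18.4 CPM (median 12.2), against 9.77 to 26.3 in Middle (median 14.5). Of 27 CR oocytes, 6 lay below the lowest Middle value and 7 above its median, so the groups overlapped broadly. The means were 15.5 ± 4.55 (n = 14) and 12.1 ± 3.26 CPM (n = 27), with a log2 fold change of -0.36, a standard error of 0.13 and an adjusted p of 0.0397 from edgeR. This was the least stable of the 4 calls, kept under 7 of 16 alternatives with adjusted p from 0.0154 to 0.437. It was lost without CR1, CR3, Middle1 or Middle2 and after thinning (adjusted p = 0.073), while the sign stayed negative in all 16.

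**Figure D3:**
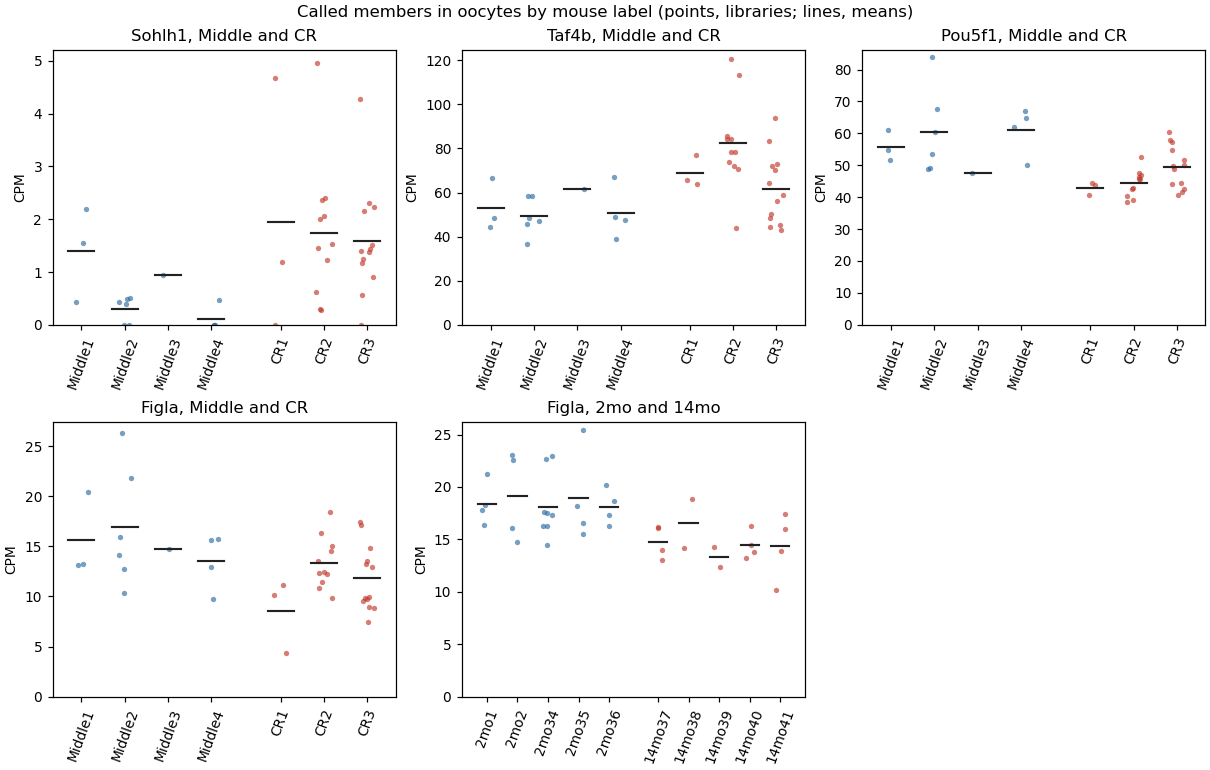
Oocyte libraries of the comparisons with called genes, split by mouse label (x axes) with levels in CPM (y axes), for Sohlh1, Taf4b, Pou5f1 and Figla in Middle (blue) and CR (red) and for Figla in 2mo (blue) and 14mo (red). Points are libraries and lines the mean of a mouse, and the reader should see that CR3 lies within the means of Middle mice for Taf4b and Pou5f1, while the mouse means of Figla in 14mo, 13.3 to 16.5, lie below those of 2mo, 18.1 to 19.1. That overlap of CR3 rests on Middle3, a single oocyte.

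The other 5 members were not called between CR and Middle. Lhx8 was at 207 ± 35.2 CPM in Middle and 187 ± 18.6 in CR, a log2 fold change of -0.15 (95% interval -0.27 to -0.02, adjusted p = 0.0726 from edgeR), and DESeq2 called it. Nfya was at 596 ± 85.2 and 651 ± 85.7 CPM (0.13, 95% interval -0.01 to 0.27). Nobox, at 408 ± 48.9 and 393 ± 41.1, had an interval of -0.17 to 0.06. Tbpl2, at 12.4 ± 4.89 and 10.7 ± 3.20, had one of -0.53 to 0.09, and Sohlh2, at 7.32 ± 3.35 and 7.35 ± 4.22, one of -0.45 to 0.45. CR oocytes also had a median mitochondrial share of counts of 0.961%, against 0.666% in Middle, and its part in these differences was not tested. Whether CR libraries were prepared together with those of Middle is not given in the sources used here.

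CR oocytes were also set against the other ages. These comparisons were added after seeing the data and use the same CR libraries as the one with Middle, so they are not independent of it. Against Young, 6 of 9 members were called beside 33.3% of all genes: Sohlh1 (1.48) and Taf4b (0.43) higher, and Figla (-0.48), Tbpl2 (-0.43), Pou5f1 (-0.36) and Nobox (-0.14) lower on the log2 scale. Against Old, 3 of 9 were called beside 38.7% of all genes: Sohlh1 (2.39) and Nfya (0.41) higher and Tbpl2 (-0.55) lower. Tbpl2, the germ-line relative of TBP, was at 14.5 ± 6.47 CPM in Young, 12.4 ± 4.89 in Middle, 15.7 ± 3.43 in Old and 10.7 ± 3.20 in CR oocytes. Taf4b in CR was level with Old, at a log2 difference of 0.03 (95% interval -0.26 to 0.31).

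In cumulus cells, 7 of the 9 genes were at or near 0, and only Nfya and Taf4b were measured in every library. The 7 genes together had a count in 15 of 71 cumulus libraries of the first set, 65 counts in all, of which 48 were in the 5 libraries highest in oocyte markers. In the second set they had 6 counts in 6 of 128 libraries. Pooled over a set, Nobox was 1015 times higher in oocytes than in cumulus cells in the first set (95% counting interval 751 to 1408) and 13227 times in the second (5166 to 48547). For Lhx8 (at least 7837-fold), Tbpl2 (at least 524-fold), Sohlh2 (at least 244-fold) and Sohlh1 (at least 11.7-fold), no cumulus library of the second set held a count, and the ratios are lower bounds at a floor of 3 counts over the group. In the first set, where oocyte markers reached 423 CPM in a cumulus library, the ratios were 2868 (1392 to 7133) for Lhx8, 656 (182 to 5423) for Tbpl2, 381 (105 to 3149) for Sohlh2 and 36.6 (12.4 to 179) for Sohlh1. Reads carry no molecular identifiers, so these intervals and floors cover counting error only.

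**Figure D4:**
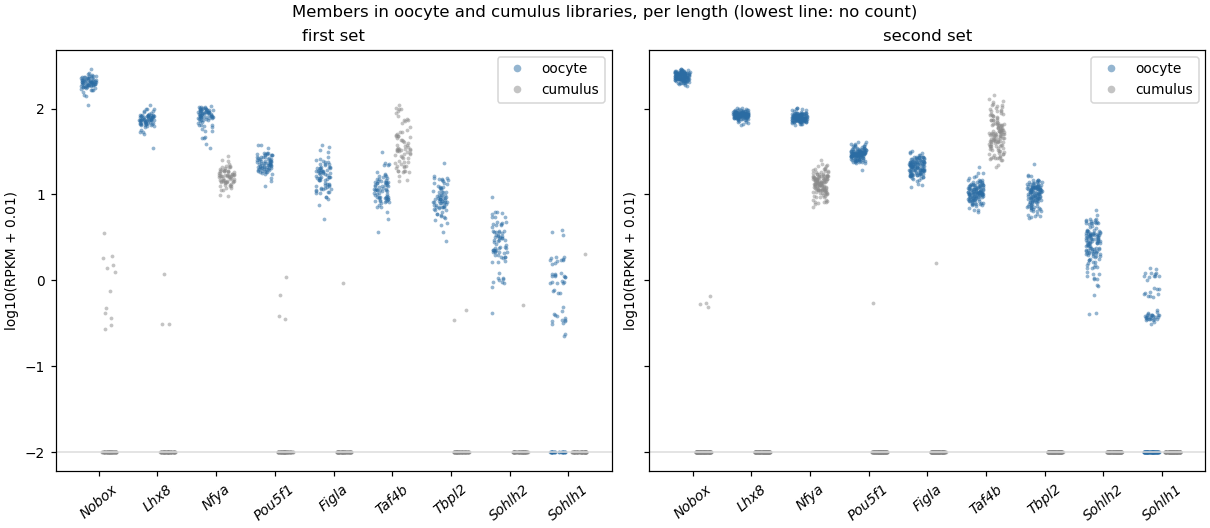
Level per length of each gene in oocyte and cumulus libraries (y axis, log10 of RPKM + 0.01, so that libraries without a count lie at -2; x axis, genes). The reader should see 7 genes at the floor in nearly all cumulus libraries, Nfya higher in oocytes and Taf4b higher in cumulus cells.

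Taf4b (chr18:14783245-14900359 in GRCm38, plus strand, overlapped by an annotated pseudogene) was the 1 member lower in oocytes than in cumulus cells, in all 9 conditions. Its group means were 9.98 to 13.8 RPKM in oocytes and 36.6 to 60.7 in cumulus cells, and its log2 differences ran from -2.17 in 2moNoH to -0.94 in CR. Nfya was higher in oocytes in all 9 conditions, by 2.56 (Old) to 3.08 (2moNoH) on the log2 scale. Pooled ratios of oocyte to cumulus level were 4.82 and 5.71 for Nfya and 0.299 and 0.192 for Taf4b in the first and second set. In each condition edgeR called 8 members higher in oocytes and 1 lower (DESeq2 did not call Sohlh1 except in CR), but the 7 genes near 0 in cumulus cells passed the filter on low counts through the oocytes and had to differ there. Of all genes tested, 40.7% were higher in oocytes and 44.9% higher in cumulus cells in Young, 41.7% and 42.9% in Middle, 40.2% and 41.7% in Old and 42.9% and 45.0% in CR. In the second set the shares were 42.3% and 46.1% in 2mo, 41.2% and 48.7% in 4mo, 41.3% and 45.1% in 9mo, 42.0% and 44.5% in 14mo and 41.4% and 47.6% in 2moNoH. With the complex as a block, pairing each oocyte with its own cumulus cells, Sohlh1 in Young was not called and the other calls were the same.

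Nfya in cumulus cells was called in 4 comparisons, on age in the second set, on diet and on hyperovulation. A cumulus library is a pool of cells, and fewer cells of a type and less RNA per cell cannot be told apart in it. The 24 values of 2mo ran from 76.0 to 186 CPM (median 119), the 32 of 2moNoH from 57.3 to 124 (median 84.9). Of the 24 libraries of 2mo, 21 were above the median of 2moNoH and 8 above its highest value. The means of 120 ± 28.4 (n = 24) and 87.8 ± 19.3 CPM (n = 32) gave a log2 fold change of 0.45 with a standard error of 0.09 and an adjusted p of 0.00027 from edgeR, the most stable of the 4, kept without each of 13 mice in turn and lost in sums per mouse (adjusted p = 0.233). It was the 1 called of 2 members tested, beside 13.2% of all genes. Cumulus markers had medians of 7422 CPM in 2mo and 5680 in 2moNoH cumulus libraries, and their part in this difference was not tested.

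With age, Nfya was lower in cumulus cells of the second set. The 16 values of 9mo ran from 59.8 to 114 CPM (median 84.8) and the 16 of 14mo from 59.6 to 121 (median 91.2). None of the 9mo libraries and 2 of the 14mo libraries were above the median of 2mo, and 4 of each were below its lowest value. The log2 fold changes were -0.45 with a standard error of 0.10 (adjusted p = 0.0114 from edgeR) at 87.4 ± 15.0 CPM in 9mo, and -0.42 with a standard error of 0.10 (adjusted p = 0.0211) at 88.6 ± 16.8 CPM in 14mo. Nfya was the 1 called of 2 members tested in both comparisons, beside 1.92% and 1.7% of all genes. Both rest on the same 2mo libraries, in which the label 2mo34, with 8 of 24 libraries, was highest, at 144 CPM, and the other 4 labels were at 93.6 to 119. Without 2mo34 they were -0.30 (adjusted p = 0.127) and -0.27 (adjusted p = 0.197), both calls were lost in sums per mouse (0.384 and 0.361), and they were also lost without 9mo23 or 9mo24 and without 14mo37, 14mo38 or 14mo40. In 4mo, at 111 ± 22.2 CPM (n = 40), Nfya was not called (-0.11, 0 of 2 members beside 0.519% of all genes, 0 at an unadjusted p under 0.05 and 0 by DESeq2), nor between 14mo and 9mo (0.02, 0 of 2 beside 0.143%, with the same counts of 0).

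In CR, Nfya was higher in cumulus cells. Its 15 values in Middle ran from 82.8 to 143 CPM (median 105) and its 25 in CR from 98.5 to 206 (median 138), with 23 of 25 above the Middle median and 10 above its highest value. The means were 108 ± 20.5 (n = 15) and 140 ± 26.7 CPM (n = 25), a log2 fold change of 0.37 with a standard error of 0.09 (adjusted p = 0.0128 from edgeR), the 1 called of 2 tested beside 3.6% of all genes. The means of mice were 106 to 124 CPM in Middle and 131 to 155 in CR and did not overlap. The call was lost without CR2 or Middle2 and in sums per mouse (adjusted p = 0.542). Among ages of the first set Nfya was at 105 ± 18.6 CPM in Young and 118 ± 14.2 in Old and did not pass the test (0.19, 95% interval 0.02 to 0.35, adjusted p = 0.219), so the sign with age was opposite to that in the second set.

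The 4 comparisons in which Nfya was called in cumulus cells and not in oocytes were also fitted with both cell types together. They were chosen after these calls were seen, 3 of them share the 2mo libraries, and sums per mouse were not used, so they add no independent support. The oocyte change minus the cumulus change of Nfya was -0.44 for 2mo against 2moNoH (standard error 0.09, adjusted p = 0.00069 from edgeR, beside 4.05% of all genes called), 0.43 for 14mo against 2mo (0.11, adjusted p = 0.0271, beside 0.745%) and -0.33 for CR against Middle (0.11, adjusted p = 0.0389, beside 12.7%). For 9mo against 2mo it was 0.37 and not called (adjusted p = 0.0862, beside 0.312%). Taf4b was called in none of these 4 fits, with adjusted p from 0.509 to 0.99999.

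**Figure D5:**
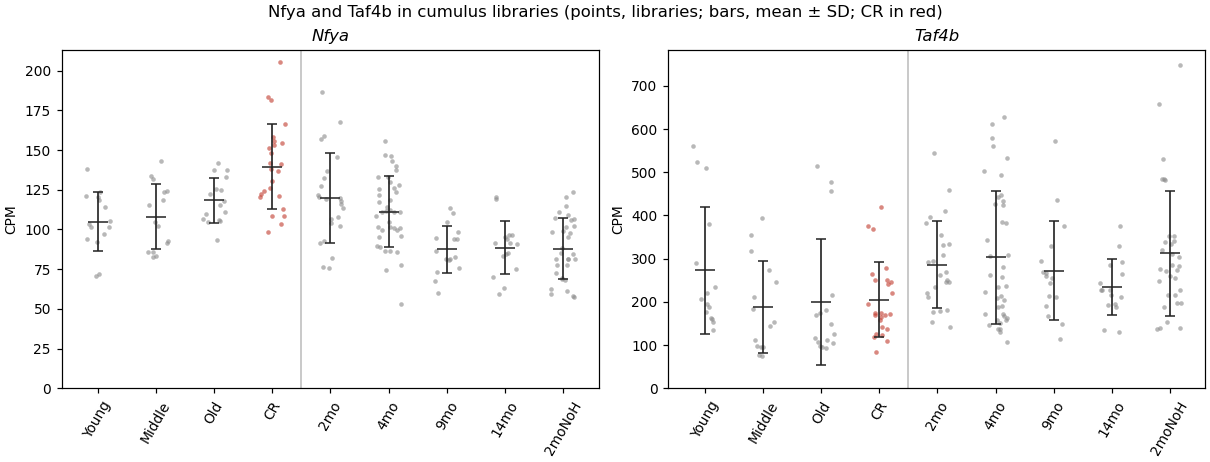
Nfya and Taf4b in cumulus libraries by group (y axes, CPM; x axes, groups, CR in red). Points are libraries and bars the mean ± SD, and the reader should see Nfya higher in CR (140) than in Middle (108), and lower in 9mo (87.4), 14mo (88.6) and 2moNoH (87.8) than in 2mo (120), while Taf4b spreads widely in each group.

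Taf4b in cumulus cells varied more between libraries than between groups. Its coefficient of variation within a group was 27.8% to 73.0%, and group means ran from 188 ± 106 CPM in Middle (n = 15) to 313 ± 145 in 2moNoH (n = 32). By library it was called in none of the 9 comparisons by edgeR or DESeq2, and in Middle against Young (1 member, Taf4b, at an unadjusted p under 0.05) its log2 fold change was -0.52 (adjusted p = 0.327). There 0 of 2 members were called beside 1.46% of all genes, in Old against Young 0 of 3 beside 3.96% (1, Nfya, at that limit) and in Old against Middle 0 of 3 beside 0.0433% (1, Nobox, at that limit). In sums per mouse, which make 1 sample of each mouse label, Taf4b was called lower in Middle (-0.72, adjusted p = 0.0208 from edgeR) and in Old (-0.71) against Young. Young and Old had 2 labels each, and 1 label of Old joins mice. Of all genes, these sums called 65 higher and 113 lower of 29710 in Middle against Young. In Old against Young they called 275 and 437 of 30103. Nobox was the third member tested in the comparisons with Old, at 0.520 ± 0.935 CPM from 10 counts in 16 libraries of Old, and was not called.

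Partners of these factors were also called in CR oocytes. Of 15 genes listed as partners or paralogs, 4 rose (Tcf4, Tcf12, Tbpl1 and Tbp) and 4 fell (Tcf3, Ldb1, Sall4 and Nfyc) between Middle and CR, with a median log2 fold change of 0.06 over the 15, against 0.00 over all genes, of which 30.0% were called. Tcf3 encodes E proteins, the dimer partners of FIGLA, and averaged 35.03 ± 8.12 CPM in Middle and 21.4 ± 3.17 in CR, which is -0.71 on the log2 scale with a standard error of 0.09. The genes for the other E proteins went up, Tcf12 from 39.8 ± 7.80 to 56.1 ± 14.1 CPM (0.50) and Tcf4 from 11.8 ± 9.40 to 17.8 ± 5.02 (0.60). Ldb1, the cofactor of LIM homeodomain proteins such as LHX8, went from 129 ± 25.4 to 89.3 ± 9.66 CPM (-0.53). In sums per mouse 3 of the 8 calls were kept, those of Tcf3, Ldb1 and Tcf12. Of all genes, 1543 were called higher and 1006 lower of 33232 in those sums. In the other 8 oocyte comparisons edgeR called 0 of 15 partners, with 0 to 7 at an unadjusted p under 0.05. In Old against Middle 5 of 15 partners and 4462 of 23347 genes were at that limit. DESeq2 called 5 in Old against Young, where it called 2808 of 23100 genes and where 7 partners and 6272 genes were at that unadjusted limit, and 0 in the other 7.

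Of 16 oocyte genes known as targets of these factors or dependent on them, 10 of which are also among the oocyte markers, 3 rose (Nlrp5, Nlrp14 and Dppa3) and 5 fell (Rfpl4, Zp3, H1foo, Zar1 and Jag1) in CR against Middle oocytes, with a median of 0.06. Of all genes tested in this comparison 30.0% were called, 15.8% higher and 14.2% lower, and the count of targets has to be read against that share. Nlrp5, a maternal-effect gene, went from 1225 ± 304 to 2020 ± 561 CPM (0.73), and Nlrp14 from 4326 ± 1114 to 5747 ± 1328 (0.42). Rfpl4 went from 1221 ± 268 to 908 ± 116 CPM (-0.43), and Zp3, the zona pellucida gene, from 2397 ± 492 to 1849 ± 351 (-0.37). In sums per mouse 0 of the 16 were called, and 1 (Nlrp5) with all deposited libraries. Of all genes, 1543 were called higher and 1006 lower of 33232 in the sums, and 4048 and 3753 of 25415 with all deposited libraries. With age, 2 of 16 targets were called in Old against Young, beside 7.39% of all genes, Oosp1 higher (0.57, adjusted p = 0.0423 from edgeR) and Zar1 lower (-0.63, adjusted p = 0.0248). At an unadjusted p under 0.05 by edgeR were 8 of 16 targets, beside 6272 of 23100 genes. DESeq2 called 4 targets (Oosp1, Padi6, Zar1 and Zp3) and 2808 genes. The median log2 fold change was -0.31 for the targets and 0.11 for all genes. With the cumulus marker level as a covariate, 17 genes in all were called in that comparison, against 1707 without it. Marker level and age went together there, and this fit cannot tell them apart. H1foo was the 1 of 16 called in 14mo against 2mo, beside 1.14% of all genes. It fell from 870 ± 71.4 CPM in 2mo to 790 ± 47.1 in 14mo (-0.14, adjusted p = 0.0426 from edgeR). In the other 6 oocyte comparisons edgeR called 0 of 16, and DESeq2 called 1 in Old against Middle (Zar1) and 0 in the other 5. In Old against Middle 9 of 16 targets had an unadjusted p under 0.05 by edgeR, beside 4462 of 23347 genes. The median log2 fold change there was -0.31 for the targets and 0.05 for all genes. In the other 5 comparisons, 0 to 5 targets and 1625 to 2144 genes were at that limit.

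In cumulus cells, 1 of 13 partners tested was called in CR against Middle (3.6% of all genes), Gtf2a1, which encodes a subunit of TFIIA, from 199 ± 63.9 CPM in Middle to 329 ± 110 in CR (0.73, adjusted p = 0.0013 from edgeR). In 2mo against 2moNoH, 2 of 12 were called, close to the 13.2% of all genes. Nfyc, which encodes a histone-fold subunit of NF-Y, rose as Nfya did, from 56.7 ± 12.8 CPM in 2moNoH to 72.2 ± 14.0 in 2mo (0.35, adjusted p = 0.0052), and Tbp fell (-0.46, adjusted p = 0.00093). Of the targets in cumulus cells, Zp3 was called lower in Old against Young, at 0.295 ± 0.713 CPM in Old and 3.87 ± 10.7 in Young. It was 1 of 15 tested, beside 3.96% of all genes. Zp1 was called lower in 2mo against 2moNoH, at 0.109 ± 0.535 and 0.823 ± 1.30 CPM, 1 of 7 tested and close to the 13.2% of all genes. DESeq2 called neither. Zp3 and Zp1 are oocyte markers, which reached 164 CPM in a cumulus library of Young and 31.9 in one of 2moNoH. The part of oocyte RNA in the calls of Zp3 and Zp1 was not tested. The other subunits of NF-Y, chosen for display after their values were seen, differed between the cell types in opposite directions. Nfyc was higher in oocytes in all 9 conditions, by 2.49 to 2.92 on the log2 scale, like Nfya. Nfyb was lower in all 9, with differences of -2.06 to -1.48, at group means of 7.31 to 11.99 CPM in oocytes and 31.0 to 49.6 in cumulus cells.

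Genes whose levels followed a member most closely over oocytes were looked for among 8906 genes with a median of at least 20 counts, by Pearson's r of log2(CPM + 1) over the 127 oocytes of the second set, after the mean of each group was subtracted. Points share the library and its depth, and r is a description. Means of mouse labels were not subtracted, so differences between mice of a group, as for Nfya between Old1_2 and Old3, enter r. The part of such differences and of cumulus RNA in r was not tested. For Nfya these genes were Dcp1a (r = 0.772, and 0.918 over the 73 oocytes of the first set), Plat (0.764 and 0.803) and C2cd5 (0.734 and 0.913). For Taf4b they were Larp4b (0.640 and 0.686), Kdm1b (0.637 and 0.607) and Hacd3 (0.615 and 0.571). Kdm1b, a histone demethylase needed for maternal imprints, is itself highly expressed in growing oocytes. Lhx8 was followed by the zona pellucida gene Zp1 (0.523 and 0.360), by Oas1c (0.513 and 0.734) and by Zp3 (0.501 and 0.487). Nobox was followed by Tspan3 (0.653 and 0.311), Pigs (0.597 and 0.238) and Hsph1 (0.573 and 0.537). Figla, at lower r, was followed by Prdx1 (0.439 and 0.676), Rsrc2 (0.418 and 0.253) and Cpa1 (0.354 and 0.443). For Pou5f1 the leading gene was its antisense neighbour Gm19553 (0.617 and 0.837), with which its reads may be mixed, followed by Arrdc2 (0.519 and 0.395) and Mark2 (0.484 and 0.3498). Tbpl2 had the weakest relations, with Anapc15 (0.333 and 0.0926), Neil3 (0.291 and 0.272) and Gm8337 (0.290 and 0.234), and Sohlh1 and Sohlh2 had too few counts for the search. Among the 21 pairs of the 7 members searched, those beyond 0.2 with the same sign in both sets were Figla and Lhx8 (0.266 and 0.403), Nfya and Pou5f1 (0.262 and 0.369), Figla and Nfya (-0.284 and -0.365) and Pou5f1 and Taf4b (-0.248 and -0.488). The pair with the largest r in the second set, Lhx8 and Nfya (-0.542), was at -0.109 in the first.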

How the data were processed

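RamDA-seq libraries of single oocytes and of their own cumulus cells came in 2 sets. Per the labels and the methods of the study, the authors aligned reads to GRCm38 with HISAT2 2.0.5 and counted them with featureCounts 1.5.1 over GENCODE vM15, sharing multi-mapped reads and without use of strand. The deposited values were expected counts, of which 36.8% and 35.1% of nonzero values were not whole, and were rounded here. The deposited RPKM values of CR matched their counts for 0.771% of values, against 100% in the other groups, so levels per length were calculated from counts and the deposited lengths.

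Genes counted in 5 or more libraries were tested with edgeR 4.0.16 (TMM, quasi-likelihood F-test; R 4.3.3), each comparison on its own 2 groups, at a Benjamini-Hochberg false discovery rate of 5%. Alternatives were DESeq2 1.42.0, RLE size factors, filterByExpr or no filter, all groups in one fit, sums per mouse, all deposited libraries, CR counts thinned, plate (B1 or B2, second set) as a covariate, the complex as a block, and each mouse label left out. The steps were tested on simulated data. Levels, intervals and figures were made in Python 3.11.15 with numpy 2.4.6, pandas 2.3.3, scipy 1.17.1 and matplotlib 3.10.9.

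The 9 genes and the partner, target and marker lists were chosen by name with earlier results of these data known. All 9 were described in every comparison, list genes were named where called, with the 4 of largest change in full, and the genes most alike to a member were the first 3 by r. Complex numbers pair an oocyte with its own cumulus cells by origin. Deviations from group means correlated by a median of 0.0386 over 70 complexes of the first set and 0.0403 over 127 of the second. The covariate fit, the fit of both cell types and the comparisons of CR with Young and Old were added after seeing the data. Replicates of one mouse share their source.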

Additional observations from a re-analysis of the deposited data

Results flagged for a closer look

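For 3 comparisons, the change of Nfya in oocytes differed from its change in cumulus cells by a test of the difference itself (edgeR quasi-likelihood test of the interaction, without a block for the complex). For 2mo against 2moNoH, the oocyte change minus the cumulus change was -0.44 on the log2 scale (adjusted p = 0.00069), with cumulus cells at 120 CPM in 2mo and 87.8 in 2moNoH and oocytes at 592 and 583. For 14mo against 2mo it was 0.43 (adjusted p = 0.0271), with cumulus cells at 88.6 CPM in 14mo and 120 in 2mo and oocytes at 575 and 592. For CR against Middle it was -0.33 (adjusted p = 0.0389), with cumulus cells at 140 CPM in CR and 108 in Middle and oocytes at 651 and 596. These comparisons and 9mo against 2mo were tested because Nfya had been called in cumulus cells and not in oocytes. For 9mo against 2mo the difference was 0.37 and was not called (adjusted p = 0.0862 from edgeR). With counts summed per mouse, each of the cumulus calls that led to these fits was lost. The comparisons of 2mo with 2moNoH, of 14mo with 2mo and of 9mo with 2mo share the 2mo libraries.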

How the results depend on the processing

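In oocytes 134 of 149 alternative counts of called members lay within 1.5 times the reported count, and in cumulus cells 125 of 140. Between cell types it was 95 of 96, which shows little, since 7 members had to differ there. The oocyte and cumulus counts include comparisons with 0 called members, where staying at 0 shows little. In CR against Middle oocytes Figla was kept under 7 of 16 alternatives, Pou5f1 14 of 16, Sohlh1 12 of 15 and Taf4b 15 of 16. Figla in 14mo against 2mo oocytes was kept under 10 of 18. Nfya in cumulus cells was kept under 12 of 15 (CR against Middle), 12 of 16 (9mo against 2mo), 12 of 17 (14mo against 2mo) and 19 of 20 (2mo against 2moNoH). No called difference changed sign. With counts summed per mouse, 0 members were called in CR against Middle and in 14mo against 2mo oocytes and 0 in cumulus cells of CR against Middle, 9mo against 2mo, 14mo against 2mo and 2mo against 2moNoH, whereas 1 (Taf4b) was called in cumulus cells of Middle against Young and 1 of Old against Young. Of all genes, these sums called 1543 higher and 1006 lower of 33232 in CR against Middle oocytes. In 14mo against 2mo oocytes they called 99 and 76 of 28800. In cumulus cells they called 28 and 9 of 31790 (CR against Middle), 76 and 11 of 29900 (9mo against 2mo), 57 and 66 of 29735 (14mo against 2mo) and 139 and 148 of 30686 (2mo against 2moNoH). The counts of 0 have to be read against those shares. In Old against Young oocytes 1 member (Nfya) was called by DESeq2 and 1 with all groups in one fit. With all deposited libraries 2 were called in CR against Middle oocytes, and with the cumulus marker covariate 0 in 14mo against 2mo. Without one mouse at a time, oocyte counts were 0 to 2 in Old against Young, 0 to 1 in Old against Middle, 2 to 4 in CR against Middle and 0 to 1 in 14mo against 2mo. Cumulus counts were 0 to 1 in CR against Middle, 9mo against 2mo and 14mo against 2mo, and 1 in 2mo against 2moNoH. Between cell types of Young they were 2 to 8, since without Young2 too few libraries remained to test members without counts in cumulus cells. With the complex as a replicate block, Nfya was 2.52 to 3.11 and Taf4b -2.07 to -0.86 on the log2 scale between cell types, and the block changed no call except that of Sohlh1 in Young (8 of 9 members called). Within a cell type complexes are not shared between groups and could not serve as a block, whereas the plate, shared between groups of the second set, changed no count of called members as a covariate. Depth limits Sohlh1 and Sohlh2 most, and few mice per group limit each comparison.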
